A study of Homo sapiens with 12 samples.

Results

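The comparison described here is that of cells carrying the mutant *SIVA-D160N* with cells carrying *SIVA-WT*, which addresses the single amino acid change apart from expression of the protein as such. It takes 8 of the 12 RNA sequencing libraries of the series, chosen by their labels: 4 of *SIVA-D160N* and 4 of *SIVA-WT* transfectants, 1 of each from the breast cancer lines MDA-MB-231 and HCC1954 and the ovarian cancer lines OVCAR8 and SKOV3. The other 4 libraries, from the parental cells of each line, are given beside the values. Both kinds of transfectant were stable polyclonal pools, made with a linearized vector in which the CMV promoter drives *SIVA* joined to GFP through an IRES and selected in hygromycin. The vector's copy adds to whatever the cell makes of its own gene. The labels call the third group parental, and the study's methods describe it both as parental lines and as controls that carry the empty vector. It is called parental below. All cultures were grown in RPMI-1640 with fetal bovine serum and taken before confluence. Each line has 1 library per condition, and the 4 lines served as the replicates (n = 4). Since no pool was repeated within a line, the mutation and the pool cannot be told apart in any single line.

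SIVA is a small protein with a death domain homology region that was found through its binding to the tail of the TNF receptor family member CD27. It is known as a pro-apoptotic protein, as a target gene of p53 and E2F1, and in other settings as a protein that affects the stability of p53, stathmin and signalling through NF-kB. The D160N change replaces an aspartate by an asparagine. The gene lists below therefore cover apoptosis, p53, NF-kB, microtubules and adhesion, and also growth, metabolism and stress pathways that epithelial tumour lines use.

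Total counts ran from 37938618 to 43898026 in *SIVA-WT* and from 36444830 to 40801389 in *SIVA-D160N*, and the ranges overlap. The lines carried their defining markers. *ERBB2*, the receptor amplified in HER2-positive tumours, was between 5736 and 9223 CPM (counts per 1000000 of the TMM-adjusted library) in HCC1954 and between 5964 and 12170 CPM in SKOV3, against at most 78.1 CPM in the other lines. *GRB7*, its neighbour on chromosome 17, was high in HCC1954 (at least 1141 CPM), but reached only 65.7 CPM in SKOV3. Keratins 8 and 18 were measured in all 12 libraries, whereas *KRT19* and *EPCAM* were at most 1.19 and 0.768 CPM in SKOV3. Of 8 markers of blood and vessel cells, *PTPRC*, *CD3E*, *CD68* and *CD14* stayed under 1 CPM in every library, while *PECAM1* and *CDH5* were measured in HCC1954 (32.6 to 62.8 and 12.5 to 25.4 CPM).

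*SIVA1* itself did not differ between the 2 kinds of transfectant beyond the spread of the lines. In the order MDA-MB-231, HCC1954, OVCAR8 and SKOV3, which all lists of 4 values below follow, it was at 80.7, 38.2, 177 and 106 CPM in *SIVA-WT* and 68.2, 26.5, 161 and 112 CPM in *SIVA-D160N*. The parental values were 28.1, 0, 66.3 and 52.6 CPM, and in HCC1954 no read was counted. *SIVA-D160N* thus held 84.5%, 69.5%, 91.1% and 105% of the *SIVA-WT* level, with the largest gap in HCC1954. Across the lines the log2 fold change of *SIVA-D160N* vs *SIVA-WT* was -0.25 (SE 0.63, n = 4, FDR 0.957 by edgeR's quasi-likelihood test). That SE comes from the residual spread of all 12 libraries, including the parental HCC1954 library with no *SIVA1* read. It is not the spread of the 4 line ratios, whose mean was -0.21 with an SD of 0.25. The exact two-sided sign-flip permutation test over those ratios gave p = 0.25, where 4 lines cannot give less than 0.125. Its place in GRCh38.p14 is chromosome 14, 104753147 to 104759654. The counts per gene do not separate the vector's transcript from the endogenous one, nor the mutant base from the normal one.

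**Figure D1:**
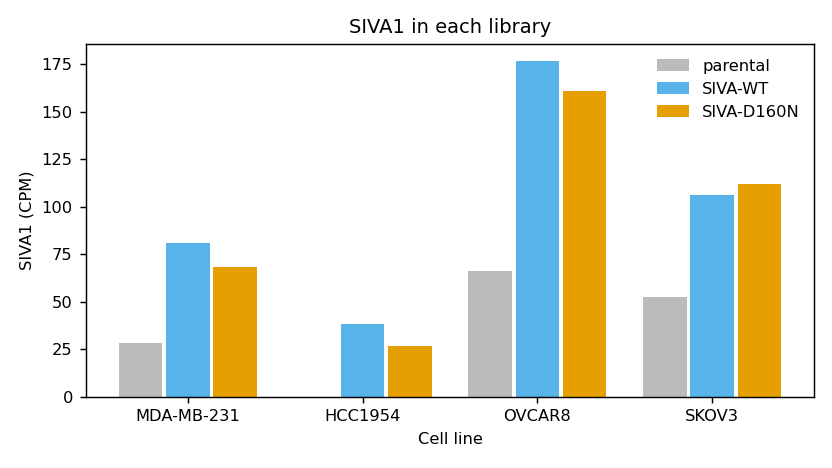
*SIVA1* in CPM (vertical axis, from 0) in each of the 12 libraries, by cell line and condition, with 1 library per bar and therefore no error bar. Both transfectants stood above the parental cells in each line, and the *SIVA-D160N* bar was lower than the *SIVA-WT* bar in 3 of 4 lines.

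No gene passed the study's thresholds in *SIVA-D160N* vs *SIVA-WT* in the fit used here, whereas keeping more genes of low counts gave 48 (genes listed in the authors' CPM table) or 59 (at least 1 count). The study itself did find genes in this comparison, most of them also found between *SIVA-D160N* and the control cells. It gave no number for them and judged the comparison not reportable. Its gene filter, which also removed genes without an Entrez identifier, differed from the one used here. Of 17211 genes tested with the line as a block, 0 (0%) had an FDR under 0.05 together with a log2 fold change beyond 1.5 in either direction, and 0 had an FDR under 0.05 at any size, the smallest FDR being 0.269 (quasi-likelihood test of edgeR, adjusted by Benjamini-Hochberg). DESeq2 gave 14 genes at an FDR under 0.05, all of them lower, and 3 were past both thresholds: *SPP1* (log2 fold change -1.54), *NUPR1* (-1.71) and, outside the rule for naming genes, *PPP1R1B* (-1.82). By limma-voom there was 1. At an unadjusted p under 0.05 there were 1184 genes, against 860.55 that a uniform spread of p-values would give, with 444 (2.58%) higher and 740 (4.3%) lower in *SIVA-D160N*. The split leaned further to the lower side with upper quartile factors, where 259 were higher and 902 lower. A ratio of one sign in all 4 lines was seen for 2091 genes (12.1%) on the higher side and 1848 (10.7%) on the lower side. Unadjusted p-values are used below only to order genes and to describe lists, and a gene at that level is not called changed.

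**Figure D2:**
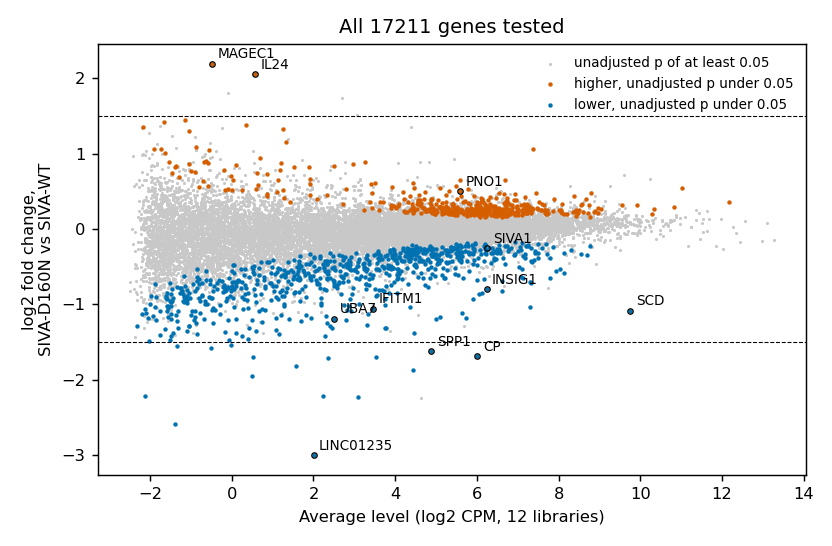
Log2 fold change of *SIVA-D160N* vs *SIVA-WT* (vertical axis) against the average level over the 12 libraries in log2 CPM (horizontal axis) for the 17211 genes tested. Orange and blue points have an unadjusted p under 0.05, dashed lines mark 1.5 in each direction, and beyond them lie 2 orange and 16 blue points.

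The differences varied with the level of the gene and, in 1 line, with base composition. Among the 8816 genes that averaged at least 4 log2 CPM, the median log2 fold change was 0.037, against -0.0029 over all genes. In that group 19.5% were above 0 in all 4 lines and 8.84% below 0, which is the background for the well expressed lists described next. In OVCAR8 the ratio followed the GC content of the transcript across genes (Spearman's rho -0.44), with a median log2 ratio of 0.13 in the 20% of genes lowest in GC and -0.16 in the 20% highest. The same rho was 0.03 in MDA-MB-231, -0.046 in HCC1954 and -0.10 in SKOV3. These are descriptions across genes of the same pairs of libraries, and each list is therefore also given with that trend removed where it matters.

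Genes for building ribosomes had higher values in the mutant transfectants, although none passed the thresholds. Of the 12 genes of smallest p among those higher in all 4 lines, *PNO1*, *UTP15*, *URB2*, *UTP20*, *NIP7* and *WDR3* encode factors that process ribosomal RNA or assemble ribosomal subunits in the nucleolus. *PNO1*, which acts on the small subunit, was at 43.5, 39.5, 53.7 and 29.1 CPM in *SIVA-WT* and 63.4, 63.8, 65.4 and 40.9 CPM in *SIVA-D160N*. It lies on chromosome 2, from 68157888 to 68176238 in GRCh38.p14. Every line was higher with the mutant (log2 fold change 0.50, SE 0.11, unadjusted p = 7.57e-04, FDR 0.719), which was a condition for naming these 12 genes. *UTP20*, a component of the small subunit processome, was at 128, 52.2, 121 and 99.2 CPM in *SIVA-WT* and 175, 81.9, 135 and 127 CPM in *SIVA-D160N*, again higher in each line (log2 fold change 0.40, SE 0.10, unadjusted p = 0.00251). *URB2*, an early large subunit factor, had log2 ratios of 0.68, 0.66, 0.021 and 0.44 and so was nearly level in OVCAR8. *UTP15*, *NIP7* and *WDR3* had log2 fold changes of 0.34, 0.38 and 0.30. The other 6 of the 12 genes were *COA7*, a mitochondrial protein, *NAA15*, the anchor of the NatA acetyltransferase, *ZWILCH* of the kinetochore, the cohesin acetyltransferase *ESCO2*, the protease *ZMPSTE24*, which matures lamin A, and *TTC27*, with log2 fold changes between 0.26 and 0.35.

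A list of 30 ribosome biogenesis factors, all tested, lay above 0 in each member, from 0.16 to 0.55. The median log2 fold change was 0.29, against -0.0029 over all genes and 0.037 over those that averaged at least 4 log2 CPM. An unadjusted p under 0.05 on the higher side was reached by 20 of 30 (66.7%). The share was 2.58% of all genes and 4.19% of that well expressed group. Above 0 in all 4 lines were 25 list members (83.3%), against 12.1% of all genes and 19.5% of that group. None of the 30 had an FDR under 0.05, the smallest being 0.719. The line medians were 0.21, 0.63, 0.086 and 0.23, so HCC1954 showed the widest gap and OVCAR8 the narrowest. Without HCC1954 all 30 were still above 0 with a median of 0.18, but only 1 had an unadjusted p under 0.05. With the GC trend removed the median was 0.29 and 21 had such a p. *WDR43*, *NOP58* and *LYAR*, which act in the nucleolus, had log2 fold changes of 0.33, 0.25 and 0.36. *POLR1A* and *POLR1B*, the large subunits of RNA polymerase I, which transcribes ribosomal RNA, had 0.24 and 0.30. Set beside the parental cells, the median was -0.054 in *SIVA-WT* and 0.24 in *SIVA-D160N*, 2 comparisons that share the parental libraries. In libraries made from whole cultures, more cells expressing a gene and more RNA per cell cannot be told apart.

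Many ribosome biogenesis genes hold the E-box CACGTG, the letters bound by MYC, near their start. The stretches below show it in capitals for the 2 members of smallest p that carry it upstream of the start, from RefSeq (GRCh38.p14, gene strand, 5′ to 3′).
UTP20: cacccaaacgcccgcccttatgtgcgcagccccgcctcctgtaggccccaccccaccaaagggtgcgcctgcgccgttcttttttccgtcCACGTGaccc
UTP4: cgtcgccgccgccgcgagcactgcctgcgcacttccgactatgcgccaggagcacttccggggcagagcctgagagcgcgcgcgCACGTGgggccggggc
The first is the plus strand of chr12:101280005-101280104 and the second, whose gene the count table calls *CIRH1A*, the plus strand of chr16:69132549-69132648. Of 30 list members, 25 had a promoter in the table (250 bases before to 50 after the start), and 11 of them (44%) held the letters on either strand, which read the same, against 9.01% of the promoters of tested genes. A match is a description of sequence and says nothing of binding in these cells.

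DNA replication and mitosis genes lay on the same side with smaller values. Of 40 replication and G1/S genes, 39 had a log2 fold change above 0, with a median of 0.15, and of 35 mitosis genes 33 did, with a median of 0.14. Only 2 and 4 of them had an unadjusted p under 0.05, which is 5.00% and 11.4%, against 2.58% of all genes and 4.19% of those that averaged at least 4 log2 CPM. Values above 0 in all 4 lines were seen for 19 and 17 members (47.5% and 48.6%), against 12.1% of all genes and 19.5% of that group. *RRM2*, a subunit of ribonucleotide reductase, was at 233, 264, 232 and 263 CPM in *SIVA-WT* and 266, 445, 269 and 301 CPM in *SIVA-D160N* (log2 fold change 0.34, SE 0.13, unadjusted p = 0.0218). The gap was widest in HCC1954, with log2 ratios of 0.20, 0.75, 0.22 and 0.20. *CCNE2*, a cyclin of the G1/S step, had log2 ratios of 0.52, 0.39, 0.34 and 0.16 (log2 fold change 0.36, SE 0.16, unadjusted p = 0.0497). *ANLN*, which scaffolds the contractile ring of dividing cells, was at 453, 414, 438 and 261 CPM in *SIVA-WT* and 512, 668, 538 and 349 CPM in *SIVA-D160N* (log2 fold change 0.40, SE 0.12, unadjusted p = 0.00573), higher in each line. *BUB1*, *AURKA* and *HMMR*, genes of the spindle and its checkpoint, had 0.20, 0.25 and 0.25, while the proliferation marker *MKI67* had 0.21 (unadjusted p = 0.0667). The line medians were 0.11, 0.42, 0.029 and 0.11 for replication and 0.21, 0.18 and 0.15 for mitosis in HCC1954, OVCAR8 and SKOV3, while MDA-MB-231 was level for mitosis. Without HCC1954 the count on the higher side was 0 for replication and 2 for mitosis, without MDA-MB-231 it was 7 and 8, and without SKOV3 1 for mitosis.

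On the lower side the 12 genes of smallest p with one sign in all 4 lines were less alike in function, and their fold changes were larger. *UBA7*, the enzyme that activates the ubiquitin-like protein ISG15, was at 0.632, 26.0, 0.683 and 1.77 CPM in *SIVA-WT* and 0.364, 8.28, 0.340 and 0.936 CPM in *SIVA-D160N*. Its gene lies on chromosome 3, from 49805209 to 49813953 in GRCh38.p14. The mutant was lower in each line (log2 fold change -1.19, SE 0.20, unadjusted p = 9.69e-05, FDR 0.556), again a condition for naming the 12 genes. HCC1954 held 1120 and 290 counts of *UBA7*, whereas the transfectants of the other lines held between 13 and 79. *PAQR6*, a membrane progesterone receptor, was at 7.86, 29.5, 9.41 and 11.3 CPM in *SIVA-WT* and 5.25, 11.7, 5.83 and 6.53 CPM in *SIVA-D160N*, with the mutant below *SIVA-WT* in every line (log2 fold change -0.87, SE 0.16, unadjusted p = 2.68e-04). *SPP1*, which encodes the secreted matrix protein osteopontin, was at 0.101, 32.5, 0.263 and 110.0 CPM in *SIVA-WT* and 0.0486, 5.08, 0.157 and 63.9 CPM in *SIVA-D160N* (log2 fold change -1.62, SE 0.33, unadjusted p = 4.48e-04). Its log2 ratio of -2.66 in HCC1954 stood apart from -0.62, -0.60 and -0.78 in the other lines, where MDA-MB-231 and OVCAR8 held at most 10 counts. *NEAT1*, the long non-coding RNA on which paraspeckles form, was at 78.0, 499, 177 and 668 CPM in *SIVA-WT* and 60.5, 336, 111 and 413 CPM in *SIVA-D160N* (log2 fold change -0.58, SE 0.13, unadjusted p = 8.24e-04), lower in each line by a similar amount. *YPEL3*, a gene described as p53-regulated and growth-suppressive, had log2 ratios of -0.61, -0.75, -0.49 and -0.74, and *PLA2G6*, a phospholipase A2, of -0.72, -0.84, -0.68 and -0.55, which were among the most even of the group. *ATHL1* (now *PGGHG*), a glucosidase that acts on collagen sugars, *SYTL1* of vesicle transport, *PBXIP1* and *ACBD4*, an acyl-CoA binding protein, had log2 fold changes of -0.65, -0.66, -0.61 and -0.54. *INSIG1* and *IFITM1* belong to lists taken up below.

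**Figure D3:**
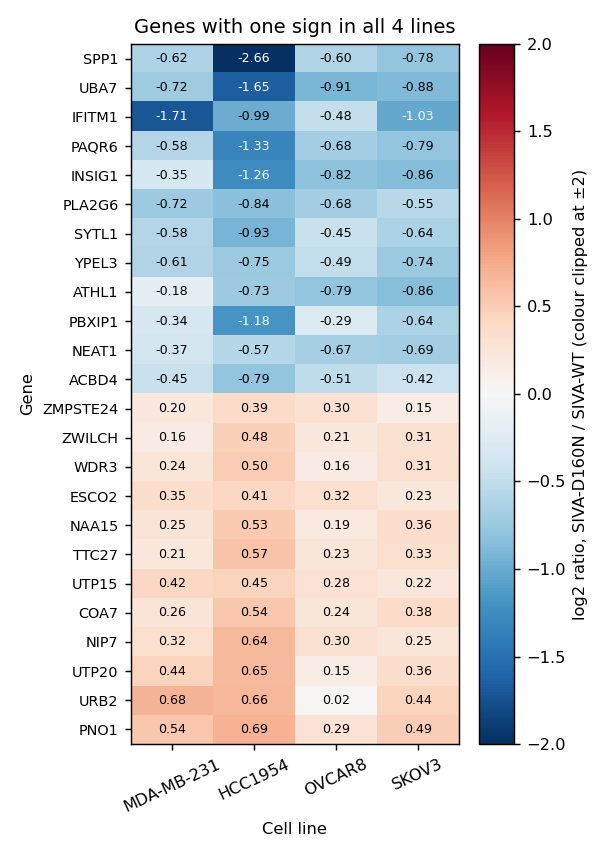
Log2 ratio of *SIVA-D160N* to *SIVA-WT* in each line (columns) for the 12 higher and 12 lower genes of smallest p with one sign in all 4 lines (rows), 1 library per condition and line. The genes were selected on these values, so neither the one sign nor the size in a row is a finding. The ratios of UBA7 ranged from -1.65 to -0.72 and those of PNO1 from 0.29 to 0.69.

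The gene of smallest FDR was not among them. *CP* (ceruloplasmin, the copper-carrying ferroxidase), named here after its values were seen, was at 0.227, 368, 0.131 and 0 CPM in *SIVA-WT* and 0.194, 99.6, 0.0523 and 0 CPM in *SIVA-D160N*, a level that only HCC1954 reached (log2 fold change -1.69, SE 0.23, unadjusted p = 1.56e-05, FDR 0.269). The other lines held at most 9 counts in either transfectant, so the value rests on 1 line, in which parental cells had 305 CPM. Beyond 1.5 on the log2 scale with an unadjusted p under 0.05 there were 2 higher and 16 lower genes, most of them expressed in only some lines. The higher ones were *MAGEC1*, a cancer-testis antigen (2.19, SE 0.52), and the cytokine *IL24* (2.05, SE 0.68). *MAGEC1* had log2 ratios of 0, 3.29, 0 and 1.47, with 0 counts in the transfectants of MDA-MB-231 and OVCAR8. It held 5 and 55 counts in HCC1954 and 56 and 145 in SKOV3. *IL24* had log2 ratios of -1.01, 2.56, 1.20 and 0.58. For *IL24* only HCC1954 held more than 14 counts, and MDA-MB-231 (2 and 0 counts) and SKOV3 (0 and 1) give no direction. The 5 lowest were *LINC01235* (-3.0), *GABRG1* (-2.58), *SEPP1* (now *SELENOP*, a plasma selenoprotein, -2.22), *RCSD1* (-2.21) and *OVCH2* (-2.21). Outside HCC1954 the transfectants held at most 6 counts of *LINC01235* and at most 21 of *RCSD1*. No transfectant held more than 55 counts of *GABRG1* or more than 27 of *OVCH2*. *SEPP1* rested on HCC1954, where its log2 ratio was -3.17 against -0.044, 0 and 0.11 elsewhere.

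Most genes of sterol and fatty acid synthesis had lower values in the mutant transfectants. These genes are read out by the SREBP factors, which are held in the endoplasmic reticulum by INSIG proteins when sterols are plentiful. Of 32 genes tested, 29 had a log2 fold change below 0, the median was -0.28, 11 (34.4%, against 4.3% of all genes) had an unadjusted p under 0.05 on the lower side, and 17 (53.1%, against 10.7%) were below 0 in all 4 lines. None was higher in all 4 lines and none had an FDR under 0.05. *INSIG1* was at 156, 71.7, 36.6 and 75.8 CPM in *SIVA-WT* and 123, 30.0, 20.7 and 41.7 CPM in *SIVA-D160N* (log2 fold change -0.80, SE 0.17, unadjusted p = 5.93e-04), lower in each line. *SREBF1*, which encodes SREBP1, had log2 ratios of -0.29, -1.06, -0.66 and -1.33 (log2 fold change -0.82, SE 0.21, unadjusted p = 0.00238). *SCD*, the desaturase that makes oleate, was at 1495, 1261, 379.7 and 668 CPM in *SIVA-WT* and 1301, 361, 195 and 218 CPM in *SIVA-D160N* (log2 fold change -1.08, SE 0.28, unadjusted p = 0.00253). It was nearly level in MDA-MB-231 and among the 4 lowest ratios of all well expressed genes in OVCAR8 and in SKOV3. *MSMO1* of sterol synthesis and *FADS2*, the delta-6 desaturase, had log2 fold changes of -0.38 and -0.38. The members were not alike. *CYP51A1*, a demethylase of sterol synthesis, had -0.072, a value named after it was seen.

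The line medians for these genes were -0.14, -0.56, -0.21 and -0.18, all below 0. Without HCC1954 the median was -0.18 and 7 genes had an unadjusted p under 0.05 on the lower side, and with the GC trend removed the median was -0.27 with 11 such genes. Beside the parental cells the median was 0.032 in *SIVA-WT* and -0.22 in *SIVA-D160N*. The sterol response element was searched as TCACNCCAC on both strands. It was found in 1 of 25 promoters of the list (4%), that of *SREBF2*, the gene of SREBP2, against 1.05% of the promoters of tested genes. *SREBF2*, named for this match, had a log2 fold change of -0.41 (unadjusted p = 0.0164). Its promoter on the plus strand of chr22:41832926-41833025 is shown with the element in capitals.
SREBF2: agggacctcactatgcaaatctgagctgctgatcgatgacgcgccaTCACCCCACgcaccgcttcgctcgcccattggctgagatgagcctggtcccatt

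Targets of ATF4, the transcription factor of the integrated stress response that drives amino acid supply, had lower values with the widest gaps in the breast lines. Of 37 genes tested, 32 were below 0 with a median of -0.34, 11 (29.7%, against 4.3% of all genes) had an unadjusted p under 0.05 on the lower side and 1 on the higher side, *ATF5* (0.40). The line medians were -0.93, -0.39, -0.09 and 0.0025, so MDA-MB-231 showed the widest gap and the SKOV3 median was level. *CHAC1*, which degrades glutathione and is among the strongest ATF4 targets, was at 74.3, 10.3, 8.51 and 4.80 CPM in *SIVA-WT* and 18.0, 6.02, 6.23 and 2.56 CPM in *SIVA-D160N* (log2 fold change -1.04, SE 0.28, unadjusted p = 0.00313), lower in each line. *ASNS*, asparagine synthetase, was at 478, 80.0, 75.1 and 26.9 CPM in *SIVA-WT* and 198, 35.9, 69.2 and 21.3 CPM in *SIVA-D160N* (log2 fold change -0.70, SE 0.22, unadjusted p = 0.00889), with a small gap in OVCAR8. *DDIT4*, an inhibitor of mTORC1, had log2 ratios of -1.22, -1.80, -0.19 and -1.02. *NUPR1*, a stress-induced chromatin protein, had -2.31, -2.49, 0 and -0.54 (log2 fold change -1.69, SE 0.37, unadjusted p = 0.00143), and in OVCAR8 it was at 0 counts in both transfectants. *PCK2* and *VLDLR* had log2 fold changes of -0.68 and -0.65. *ATF4* itself had -0.12 (unadjusted p = 0.210). Without MDA-MB-231 the list's median was -0.15 and 8 genes had an unadjusted p under 0.05 on the lower side, and without HCC1954 -0.35 and 6. Beside the parental cells the median was -0.23 in *SIVA-WT* and -0.54 in *SIVA-D160N*.

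The letters TGATGNAA, the core that ATF4 binds with C/EBP partners, were found on either strand in 6 of 31 promoters of the list (19.4%), against 2.09% of the promoters of tested genes. Those of *CHAC1* (plus strand of chr15:40953221-40953320) and *ASNS* (minus strand of chr7:97872423-97872522) carry it in capitals, read on the reverse strand in *CHAC1*.
CHAC1: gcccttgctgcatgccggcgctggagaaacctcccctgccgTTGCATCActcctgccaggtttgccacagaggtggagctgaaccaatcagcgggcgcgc
ASNS: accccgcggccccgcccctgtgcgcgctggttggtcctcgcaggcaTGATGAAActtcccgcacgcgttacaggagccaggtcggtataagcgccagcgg

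Neighbouring stress pathways were not uniform. Of 20 cytosolic aminoacyl-tRNA synthetases, which charge tRNAs with amino acids, 2 (10%) were lower at an unadjusted p under 0.05. They were *AARS* (-0.33) and *CARS* (-0.33), and 2 (10%) were higher at that level, *FARSB* (0.27) and *RARS* (0.24). The median was -0.056, and in MDA-MB-231 alone it was -0.26. The 20 chaperones and degradation factors of the endoplasmic reticulum had a median of 0.0039. At an unadjusted p under 0.05, *HERPUD1* (-0.38) and *XBP1* (-0.44) were lower (10%) and the chaperone *DNAJB11* (0.18) was higher (5%). Over all genes 4.3% were lower and 2.58% higher at that level, and each count in these 2 lists is of only 1 or 2 genes. For *XBP1*, the log2 ratios of -0.85, -1.04, 0.0038 and 0.029 were low in the breast lines and level in the ovarian lines.

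Genes of antigen presentation by MHC class I had lower values by a small amount in every line. Of 16 genes tested, 15 were below 0 with a median of -0.21, 7 (43.8%, against 4.3% of all genes) had an unadjusted p under 0.05 on the lower side, and 11 (68.8%, against 10.7%) were below 0 in all 4 lines. The line medians were -0.25, -0.26, -0.18 and -0.16. *HLA-C* was at 41.1, 202, 121 and 103 CPM in *SIVA-WT* and 36.9, 154, 105 and 87.8 CPM in *SIVA-D160N* (log2 fold change -0.25, SE 0.075, unadjusted p = 0.00693), and *HLA-B* had a log2 fold change of -0.34. In both genes the mutant was lower in every line, although reads of the HLA genes are shared among close copies and each gene's own value is uncertain. *CIITA*, the activator best known for MHC class II, which was placed in this list as a regulator, had -0.63, -1.38, -1.37 and -0.54 (log2 fold change -1.19, SE 0.31, unadjusted p = 0.00310), of which OVCAR8 (3 and 0 counts) and SKOV3 (1 and 0) are at the limit of detection. *NLRC5*, the activator of class I genes, had -0.42, -0.072, -0.40 and -0.16 (log2 fold change -0.25, SE 0.11, unadjusted p = 0.0406). *TAPBP*, which loads peptides, had -0.22. The counts were sensitive to the way of processing: with the GC trend removed 1 gene had an unadjusted p under 0.05 on the lower side with a median of -0.17, without HCC1954 1 gene (-0.20, with 16 of 16 below 0) and without MDA-MB-231 2 genes (-0.20).

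**Figure D4:**
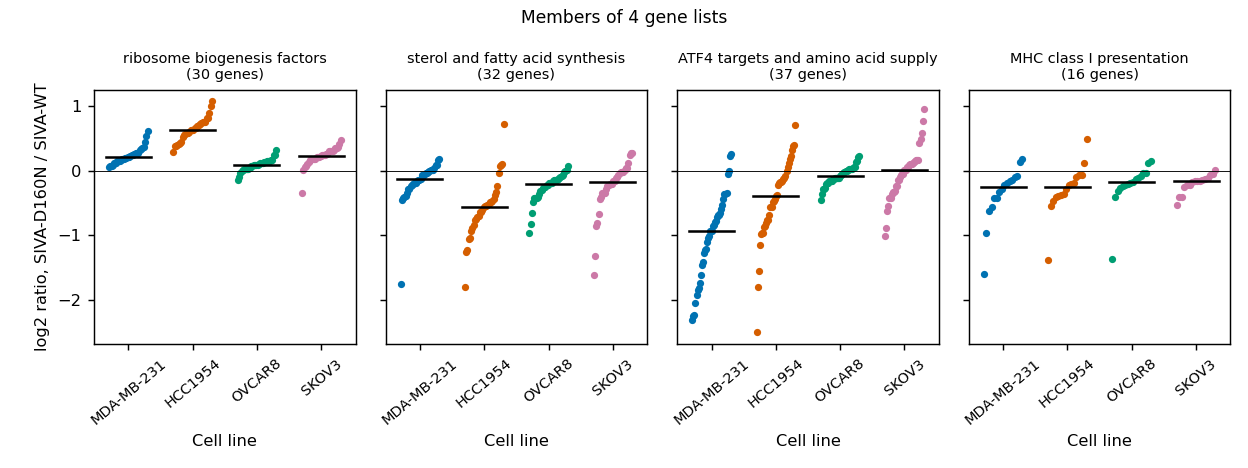
Log2 ratio of *SIVA-D160N* to *SIVA-WT* (vertical axis) for every tested member of 4 lists, in each line, sorted within the line, with 1 point per gene and a bar at the median. The ribosome biogenesis points lie highest in HCC1954 (median 0.63), the ATF4 points lowest in MDA-MB-231 (median -0.93), and the MHC class I medians lie between -0.26 and -0.16.

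Interferon-stimulated genes had lower values with the widest gap in HCC1954. Of 39 genes tested, 33 were below 0 with a median of -0.17, but only 6 (15.4%, against 4.3%) had an unadjusted p under 0.05 on the lower side and 7 (17.9%, against 10.7% of all genes) were below 0 in all 4 lines. The line medians were -0.041, -0.66, 0 and -0.21. *IFITM1*, a membrane protein that limits virus entry, was at 0.430, 38.8, 0.788 and 0.807 CPM in *SIVA-WT* and 0.0972, 19.5, 0.549 and 0.369 CPM in *SIVA-D160N* (log2 fold change -1.06, SE 0.24, unadjusted p = 9.56e-04), lower in each line and at low counts outside HCC1954. *STAT2* and *IRF9*, parts of the factor that type I interferon activates, had log2 fold changes of -0.34 and -0.51. *OAS2*, a sensor of double-stranded RNA, had log2 ratios of -0.43, -1.73, -1.04 and -0.11, and *TRIM22* of -0.041, -2.17, 0.26 and -0.64. *XAF1*, a pro-apoptotic interferon target, had -1.04, -2.28, 0 and -0.42. For *OAS2*, *TRIM22* and *XAF1* the OVCAR8 libraries held at most 4 counts, so those ratios give no direction. The classical targets *ISG15*, *IFIT1* and *MX1* had 0.044, -0.047 and -0.39 (unadjusted p = 0.902, 0.888 and 0.112). Without HCC1954 the list's median was -0.11, with 2 genes at an unadjusted p under 0.05 on the lower side and 25 of 38 below 0, and without SKOV3 9 genes were at that level. Beside the parental cells the median was -0.28 in *SIVA-WT* and -0.38 in *SIVA-D160N*, and for the MHC class I list -0.054 and -0.30.

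The interferon response element was searched as a pair of GAAA separated by 1 or 2 bases on both strands, and overlapping matches were counted as 1 promoter. It was in 7 of 12 MHC class I promoters and 25 of 32 of the interferon-stimulated genes, against 5.17% of the promoters of tested genes. *TAPBP* (minus strand of chr6:33314079-33314178) and *TAP1*, the peptide transporter (minus strand of chr6:32853785-32853884), show it in capitals.
TAPBP: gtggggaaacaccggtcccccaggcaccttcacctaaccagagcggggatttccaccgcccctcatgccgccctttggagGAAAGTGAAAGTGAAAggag
TAP1: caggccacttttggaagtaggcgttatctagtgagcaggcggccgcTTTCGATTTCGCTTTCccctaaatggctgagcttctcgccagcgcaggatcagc

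The lists closest to the known roles of SIVA had medians near 0, and the shares to set their counts against remain 2.58% of all genes on the higher and 4.3% on the lower side. Of 14 tested partners and regulators of SIVA, 1 was at an unadjusted p under 0.05, *LPAR2*, the lysophosphatidic acid receptor (log2 fold change -0.42, SE 0.13, unadjusted p = 0.00966), and the list's median was -0.012. The p53 targets had a median of -0.10 over 27 genes, with *TP53INP1* (-0.88) and *BBC3*, which encodes PUMA (-0.67), lower and *TIGAR* (0.35) and *AEN* (0.34) higher at an unadjusted p under 0.05. *BBC3* had log2 ratios of -0.92, -0.62, -0.50 and -0.57, below 0 in each line. The 31 apoptosis genes had a median of 0.022, and the 4 at that level were all lower: *TNFSF10*, which encodes TRAIL, *BMF*, *CASP10* and *CASP1*. *TNFSF10* was at 0.101, 112, 0.0788 and 0.0448 CPM in *SIVA-WT* and 0.0243, 41.5, 0.0523 and 0 CPM in *SIVA-D160N* (log2 fold change -1.37, SE 0.40, unadjusted p = 0.00573). It was lower in each line, but only HCC1954 held more than 4 counts. *BMF*, a BH3-only protein, had log2 ratios of -0.58, -0.69, -0.42 and -0.25. NF-kB targets had a median of 0.10 over 22 genes, and the adhesion molecule *ICAM1* (-1.04, -0.42, -0.55 and 0.87) was lower in 3 lines, while SKOV3 held 2 and 5 counts and gives no direction. Microtubule and stathmin genes had a median of 0.046 over 21 genes, with *MAP2* (-0.73) and the tubulin *TUBA1A* (-0.53) lower at an unadjusted p under 0.05, although reads of close tubulin copies may be shared.

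Matrix, hypoxia and invasion lists had fitted medians near 0, although the line medians of some of them differed in sign. Of 31 matrix genes 6 were lower (19.4%, against 4.3% of all genes) and 1 higher (3.23%, against 2.58%) at an unadjusted p under 0.05, with a median of -0.093. *SPARC*, a matricellular protein, had log2 ratios of -0.18, -1.97, -0.18 and -0.76, and *COL7A1*, the collagen of anchoring fibrils, -0.46, -0.37, -0.83 and -0.39 (log2 fold change -0.51, SE 0.15, unadjusted p = 0.00565), lower in each line. *THBS3* had -0.56 and *COL3A1*, measured above 3 counts only in HCC1954 and SKOV3, -1.40. *RELN* had log2 ratios of 0.18, 2.58, -0.16 and 1.80 (log2 fold change 1.38), and its value was 0.25 without HCC1954 and 2.28 without OVCAR8. Of 36 hypoxia and glycolysis genes 4 (11.1%, against 4.3% of all genes) were lower at an unadjusted p under 0.05, *MXI1*, *BNIP3L*, *ALDOC* and *CA9*. The median of that list was 0.025, from -0.28 in SKOV3 to 0.21 in MDA-MB-231. The proteases and inhibitors had a median of -0.04 over 29 genes. *MMP14*, the membrane-type collagenase, had -0.28, -1.20, -0.17 and -0.99 (log2 fold change -0.56, SE 0.21, unadjusted p = 0.0195), below 0 in each line, and *SERPINB2* 1.16, which was 0.42 without HCC1954. Mesenchymal markers (0.013 over 22 genes), integrins (0.022 over 30), YAP and TAZ targets (0.092 over 23) and junctions and keratins (0.10 over 27) held at most 1 gene at an unadjusted p under 0.05 on either side. By line, the medians were -0.11, 0.22, 0.032 and -0.10 for mesenchymal markers and -0.011, 0.079, -0.0026 and 0.050 for integrins. They were -0.20, 0.069, 0.020 and 0.33 for YAP and TAZ targets and -0.039, 0.19, -0.18 and 0.19 for junctions and keratins. The AP-1 and ERK list had a median of -0.28 over 28 genes, with line medians of -0.32, -0.35, 0.0895 and -0.29. None of its genes had an unadjusted p under 0.05 in the fit of all 12 libraries. In the 8 transfected libraries alone 9 of 27 were lower at that level and 0 higher, where 1174 of 16252 genes tested were lower. The lowest-p member in the full fit, *FOS*, had log2 ratios of -0.86, -2.46, 0.10 and -0.73 (log2 fold change -1.29, SE 0.62, unadjusted p = 0.0637). The autophagy and lysosome list had a median of -0.072 over 34 genes. At an unadjusted p under 0.05 it had 3 lower genes (8.82%), *GABARAPL1* (-0.64), *ULK1* (-0.46) and *CTSB* (-0.22). Higher at that level were 2 (5.88%), *ATG4A* (0.28) and *ATG16L1* (0.20). The NRF2 list (-0.046 over 25 genes) had 2 lower ones (8%) at that level. The shares of all genes were 4.3% lower and 2.58% higher. Of 7 tested blood and vessel markers, *PECAM1* (-0.44, -0.88, -3.59 and 0.46) and *VWF* (-0.40, -1.32, -0.78 and -0.54) were at an unadjusted p under 0.05 on the lower side, with at most 2 counts of either in SKOV3. The summed level of the 8 markers checked at the start ran from 0.403 to 79.8 CPM in *SIVA-WT* and from 0.296 to 46.8 CPM in *SIVA-D160N*, with the highest value from HCC1954 in both, and its part in the HCC1954 results was not tested. The list of 8 line identity markers had 1 gene at an unadjusted p under 0.05, *KRT19* (-0.42).

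**Figure D5:**
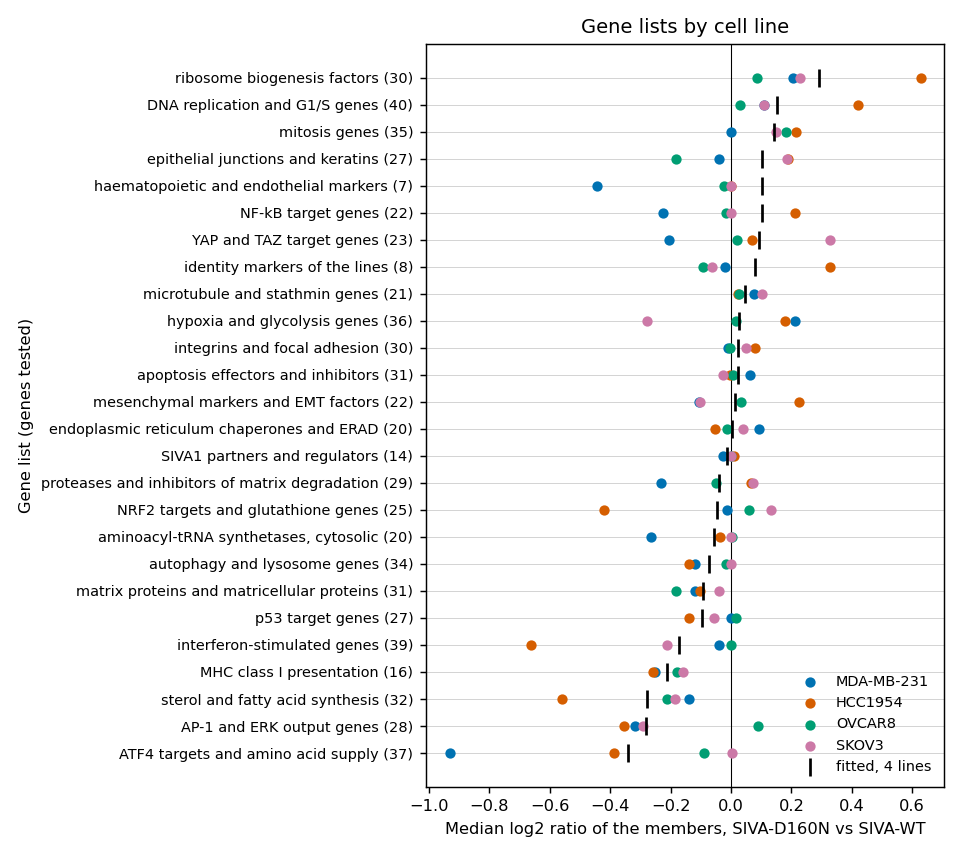
Median log2 ratio of the members (horizontal axis) of each of the 26 lists (rows, with the number of genes tested), as 1 point per line and a bar for the fitted 4-line value. The bar runs from -0.34 for ATF4 targets to 0.29 for ribosome biogenesis, and HCC1954 lies outermost in both the ribosome (0.63) and the interferon (-0.66) rows.

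The 2 transfectants of HCC1954 differed in more genes than those of any other line. Without replicates, at least 2-fold differences among the 17211 genes, on CPM with a prior count of 2, numbered 205 (1.19%) higher and 454 (2.64%) lower in MDA-MB-231, 407 (2.36%) and 1104 (6.41%) in HCC1954, 203 (1.18%) and 276 (1.6%) in OVCAR8, and 213 (1.24%) and 319 (1.85%) in SKOV3. Most were genes of low counts. Among genes with at least 10 CPM in the higher library the counts were 1 higher and 45 lower in MDA-MB-231, 68 and 237 in HCC1954, 2 and 1 in OVCAR8, and 6 and 15 in SKOV3. The mutation and the pool cannot be told apart in these counts, and HCC1954 was also the line with the largest gap in *SIVA1* and with no *SIVA1* reads in parental cells. The part of those values in the count was not tested.

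The genes at the ends of each line differed between lines. In MDA-MB-231 the lowest ratio was that of *INHBE*, an activin subunit gene (15.5 CPM in *SIVA-WT*, 1.85 in *SIVA-D160N* and 44.1 in parental cells). Next came the lactate transporter *SLC16A1* (28.7, 5.56 and 64.4), *JDP2* (10.1, 2.11 and 6.37) and *CHAC1* (74.3, 18.0 and 83.8). Of these genes *INHBE*, *JDP2* and *CHAC1* respond to ATF4. The highest ratios there were *ENG* (6.55, 13.2 and 6.55), the chaperones *HSPA8* (1293, 2558 and 698) and *HSPA1B* (32.9, 63.4 and 16.4), and *ZNF488* (6.12, 11.7 and 2.61). *HSPA1B* shares reads with a near-identical copy. For *INHBE*, *SLC16A1*, *CHAC1*, *HSPA8*, *HSPA1B* and *ZNF488* the *SIVA-WT* value lay between the parental and the *SIVA-D160N* value. For *JDP2* the *SIVA-WT* value lay above the parental one, and for *ENG* it was level with it. *HSPA8* was above 0 in each line (log2 fold change 0.55, SE 0.23, unadjusted p = 0.0354).

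In HCC1954 the lowest ratios were the AP-1 gene *FOSB* (164 CPM in *SIVA-WT*, 10.0 in *SIVA-D160N* and 15.9 in parental cells), *CYP4Z1*, a cytochrome of mammary tissue (26.1, 1.80 and 28.3), the peptide transporter *SLC15A2* and the pseudogene *CYP2B7P*. For *FOSB* it was thus the *SIVA-WT* library that stood apart, and for *CYP4Z1* the *SIVA-D160N* library. The highest were *LINC00431*, *IL24*, the plasminogen activator inhibitor *SERPINB2* and the EGFR ligand *AREG* (9.61, 42.2 and 8.23).

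In OVCAR8 the lowest were *FN1*, fibronectin (336 CPM in *SIVA-WT*, 100.1 in *SIVA-D160N* and 173 in parental cells), *MAPK15*, *SCD* and *COL7A1*. Its highest 4 ratios were all small non-coding RNAs, 2 genes with the symbol *U1*, *SNORD3A* (18 counts in *SIVA-WT* and 3352 in *SIVA-D160N*) and 1 *Metazoa_SRP* gene. Such RNAs lack the poly(A) tail by which these libraries were made, and named small RNAs took 0.0544% of the counts in this library against 0.0280% in OVCAR8 *SIVA-WT*. In SKOV3 the lowest were *SIGLEC15*, the collagenase *MMP1* (690.1 CPM in *SIVA-WT*, 215 in *SIVA-D160N* and 1493 in parental cells), *SCD* and the hypoxia marker *CA9*. The highest were *KRT17*, *THBS1*, thrombospondin 1 (1039, 2349 and 447), *TENM2* and *AIM1L*. *KRT17* had log2 ratios of -0.62, 0.86, 1.36 and 1.24 over the lines, of which MDA-MB-231 (4 and 2 counts) and OVCAR8 (0 and 3) give no direction. *MMP1* had -0.95, 0.93, 0.28 and -1.68, with both signs within the ovarian lines, and HCC1954 held only 8 and 14 counts.

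The difference between *SIVA-D160N* and *SIVA-WT* was not shown to depend on the tissue. An interaction of condition with tissue gave 0 of 17211 genes (0%) at an FDR under 0.05 by edgeR's quasi-likelihood test, with a smallest FDR of 0.396 and 385 genes at an unadjusted p under 0.05, against 860.55 that a uniform spread would give, and limma-voom also gave 0 genes at an FDR under 0.05. The 3 genes of smallest p were *TMPRSS15*, *INHBE* and *AKR1C2*. *TMPRSS15*, which encodes enteropeptidase, had 129 counts in parental cells, 1 in *SIVA-WT* and 126 in *SIVA-D160N* of MDA-MB-231, none in the transfectants of HCC1954 and OVCAR8, and 73.8 and 65.2 CPM in the SKOV3 transfectants. It was thus the *SIVA-WT* library of MDA-MB-231 that stood apart. *INHBE* had log2 ratios of -3.04, -0.55, 0.32 and 0.67. HCC1954 held 1 and 0 counts and gives no direction, so the breast side rests on MDA-MB-231. Its interaction was 3.59 on the log2 scale (SE 0.50, FDR 0.453). For *AKR1C2*, an aldo-keto reductase with near-identical copies, the log2 ratio was -2.11 in HCC1954 and between -0.45 and 0.18 in the others.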

How the data were processed

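RNA was sequenced from 12 cultures, 3 per line. Per the paper's methods and the submitters' processing notes, reads were aligned to GRCh38 with STAR (2.5.3a) and gene counts taken from its output (annotation release not given in the sources used here). The authors deposited a table of raw counts per gene and library, which holds 57187 genes and was used for every value, and a table of TMM-scaled CPM, a normalized signal from edgeR that the authors deposited for expressed genes and that served here only as an alternative gene list. Every column of both tables was tied to 1 sample (0 were not). Cell and animal assays were not analysed here.

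Groups came from the labels. Of 34909 genes with at least 1 count, 17211 passed filterByExpr. All 12 libraries were fitted with line and condition (6 residual degrees of freedom) by edgeR's quasi-likelihood test (edgeR 4.0.16, limma 3.58.1, DESeq2 1.42.0, R 4.3.3) with TMM factors and Benjamini-Hochberg adjustment, and the thresholds named by the study were kept (FDR under 0.05, log2 fold change beyond 1.5 in either direction). The line is a block because both transfectants of a line come from the same cells. Deviations of *SIVA-WT* and *SIVA-D160N* from their group means correlated at 0.956 to 0.967 across genes in the same line. In different lines they correlated at -0.433 to -0.192, where the negative sign is built in by subtracting the group means. Without that step, libraries of the same line correlated at 0.983 to 0.994 and those of different lines at 0.754 to 0.841. The p-values rest on the residual spread of all 12 libraries, the parental ones included, with 1 culture per condition and line. They do not measure the spread of the 4 line differences between the transfectants alone. Log2 ratios within a line are on TMM-scaled CPM with a prior count of 2, and have no replicate, so only counting error is known for them; at 36444830 to 43898026 counts per transfected library, the 3 counts that a gene at 0 allows are under 0.1 CPM.

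Genes were named by rule: *SIVA1*, the 12 genes of smallest p per direction with one sign in all 4 lines and an average of at least 1 log2 CPM, up to 5 of largest change beyond the fold threshold per direction, the 4 highest and 4 lowest ratios per line at 10 CPM or more, up to 6 members of smallest p per list, and 3 genes of the interaction. Genes with a clone name were counted only, and some items are not reported here. *CP*, *CYP51A1*, *SREBF2*, *ATF4*, *ATF5*, *ISG15*, *IFIT1* and *MX1* were named after their values were seen, as were the marker genes. The comparison and the 26 lists were chosen with earlier results of these data known, so no list is independent support. The fit was tested on simulated data. Alternatives were other libraries, scalings, filters, tests, no line term and each line left out; removal of the GC trend and lists without 1 line were added after seeing the data. Gene positions and promoters are from RefSeq (GRCh38.p14). Figures used Python 3.11.15, pandas 2.3.3 and matplotlib 3.10.9.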

Additional observations from a re-analysis of the deposited data

Results flagged for a closer look

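Among the 4 line values of *SIVA-D160N* against *SIVA-WT*, 1 line stood apart from the other 3 in 17 of 171 sets checked with Dixon's test at the 95% level, where chance alone marks about 1 in 20. That share is no yardstick here, since *CYP4Z1*, *CYP2B7P*, *LINC00431*, both *U1* genes, *SNORD3A* and *Metazoa_SRP* were named for an extreme ratio in 1 line and *TMPRSS15* for a small interaction p, which builds such a gap in. The gap to the nearest other line, not the size, is what marks these values, and genes with few reads outside 1 line are marked easily. In HCC1954 the log2 ratio was -2.66 for *SPP1*, -3.17 for *SEPP1*, -3.82 for *CYP4Z1*, -3.28 for *CYP2B7P*, 2.97 for *LINC00431* and 0.75 for *RRM2*. In the other lines *SEPP1* lay between -0.044 and 0.11, *CYP4Z1* was at 0, and *RRM2* lay between 0.20 and 0.22. In OVCAR8 it was 7.63 and 6.32 for the 2 genes with the symbol *U1*, 7.39 for *SNORD3A* and 4.05 for *Metazoa_SRP*, against at most 0.39 for each of these elsewhere. In MDA-MB-231 it was 5.37 for *TMPRSS15*, against -0.18 to 0 elsewhere, and 0.021 for *EPCAM*, against 0.19 to 0.20.

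For lists, the MDA-MB-231 median was -0.26 for cytosolic aminoacyl-tRNA synthetases (others -0.035 to 0.0037) and -0.44 for blood and vessel markers (others -0.022 to 0). The OVCAR8 median was 0.0895 for AP-1 and ERK output genes (others -0.35 to -0.29), and the HCC1954 median was 0.33 for line identity markers (others -0.091 to -0.02). HCC1954 also stood apart in its 407 genes at least 2-fold higher in *SIVA-D160N*, against 203 to 213 in the other lines.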

How the results depend on the processing

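The count of 0 genes past both thresholds held under other scalings, the 8 transfected libraries alone, the 1 CPM filter, the robust fit, each line left out and the GC trend removed. It was 59 with all genes of at least 1 count, 48 with the gene list of the authors' CPM table, 3 by DESeq2 and 1 by limma-voom (*CP*). Genes at an unadjusted p under 0.05 (444 higher, 740 lower) numbered 981 and 1174 in the 8 libraries alone, 259 higher with upper quartile factors, 1266 lower with all genes of at least 1 count and 1224 lower with the authors' gene list. Leaving out 1 line gave 74 to 405 higher and 274 to 804 lower, lowest without HCC1954 (74 and 274). Without the line block, which ignores the pairing, 0 genes passed and 2 higher and 3 lower were at that level. For *SIVA1* the value ran from -0.35 to -0.11 over lines left out. Of 1911 alternative values for named genes, 1897 kept their sign and 66 had an FDR under 0.05 (31 with all genes of at least 1 count, 22 with the authors' list, 12 by DESeq2, 1 by limma-voom). Without the block *SLC16A1* (0.11), *TENM2* (-0.26), *GRB7* (0.061) and *TMPRSS15* (-0.11) turned sign. With lines left out, the ranges that cross 0 are -1.44 to 0.45 for *INHBE*, -0.39 to 0.29 for *SLC16A1*, -0.029 to 0.50 for *ENG*, -2.80 to 0.15 for *FOSB*, -1.48 to 0.12 for *SLC15A2*, -0.20 to 2.97 for *LINC00431*, -0.31 to 1.33 for *AREG*, -0.95 to 3.08 for *SNORD3A*, -0.34 to 0.62 for *TENM2* and -0.19 to 0.86 for *TMPRSS15*, each of them a gene taken from the ends of 1 line or from the interaction. Of 390 alternative list medians 10 moved beyond the spread. They were the *SIVA1* partners (-0.039 with upper quartile factors, -0.043 without the block, -0.067 to -0.0025 over lines left out), p53 targets (-0.11 to 0.0059), apoptosis genes (-0.021 to 0.044) and the blood and vessel markers, whose median over 7 genes was 0.10 in the full fit, -0.15 in the 8 libraries and -0.48 to -0.29 over lines left out. The interaction gave 19 genes with all genes of at least 1 count. Within lines, 2-fold counts with a prior count of 0.5 were 1109 (MDA-MB-231), 720 (OVCAR8) and 953 (SKOV3). With a 4-fold threshold they were 51 (MDA-MB-231), 179 (HCC1954), 29 (OVCAR8) and 28 (SKOV3), and with at least 10 CPM 46, 305, 3 and 21. The cause of these shifts was not tested. With 1 culture per condition and line, the depth of 36444830 to 43898026 counts limits only genes of few counts, and the spread among 4 lines limits the rest.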
